A study of Mus musculus with 16 samples.

Results

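Macrophages that had lost Smad7 were compared with macrophages that kept it, after both had been given TGF-β1. The comparison holds 8 of the 16 libraries of the series, chosen by their labels for genotype and treatment: 4 from knockout (KO) and 4 from fl/fl macrophages. Of the 35275 genes in the count table, 12449 had enough counts in these libraries to be tested. The question put to the data is which genes differ with the Smad7 genotype while TGF-β1 is present.

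The cells were grown from tibial bone marrow of C57BL/6 mice. All of the mice carried a floxed Smad7 gene on both chromosomes, and all of them were injected with tamoxifen at 1 month of age, at 20 mg/kg on each of 5 days, and killed 2 weeks after it. KO mice also carried CAGGCre-ER, a tamoxifen-dependent Cre recombinase whose CAGG promoter is active throughout the body, so the deletion was global and not limited to macrophages. The fl/fl littermates carried no Cre, so the presence of Cre and the loss of Smad7 cannot be told apart. Marrow cells were cultured in 15% serum with the macrophage growth factor CSF-1, first at 12 and then at 120 ng/ml, and kept without serum for about 12 hours. Both groups then received TGF-β1 at 10 ng/ml for 4 hours. The labels do not say whether the 4 libraries of a group came from separate mice, so p-values measure the spread between these libraries, which may be technical.

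TGF-β binds a pair of receptor kinases that phosphorylate Smad2 and Smad3. With Smad4 these enter the nucleus and switch on target genes, Smad7 among them. Smad7 protein binds the activated receptor, blocks access to it and recruits Smurf ubiquitin ligases that mark it for destruction, which makes Smad7 a negative feedback inhibitor of the pathway. In macrophages TGF-β is known for damping inflammatory genes and for maintaining genes of microglia, the macrophages of the brain.

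Total counts were between 17131968 and 23021138 per library, and levels below are in CPM, the count relative to a library total scaled by the trimmed mean of M-values. All 7 macrophage markers in the table were detected, with a summed level between 15070 and 19524 CPM per library, while Cd3e, which defines T cells, had no count in any of the 8 libraries. Other marker lists were lower than the macrophage list, but none was at 0 in all 8 libraries. T and NK cell markers summed to between 0 and 0.271 CPM per library. Sums were 73.7 to 116 CPM for B and plasma cell, 85.1 to 147 CPM for endothelial and 35.5 to 89.1 CPM for monocyte markers. The markers thus do not show that other cells were absent. fl/fl replicate 4 stood apart from the other 7 libraries. It lay at 81.3 on the first principal component, which held 48.1% of the variance and on which the others lay between -14.3 and -6.10, and it had 14915 genes with a count against 16456 to 17124 in the others. KO replicate 1 lay apart on the second component. Among the untreated libraries, used below for comparison, the library labelled KO untreated replicate 1 went against its label. Of 850 tested genes whose mean CPM + 0.5, scaled by library totals, was more than 2-fold apart between the KO libraries given TGF-β1 and the other 3 untreated KO libraries, it lay nearer on the log2 scale to those given TGF-β1 for 832, or 97.9%. Reads of Yam1, whose locus overlaps a ribosomal RNA repeat, and of Lars2 made up 0.0478% to 0.765% of counts in KO and 1.06% to 4.63% in fl/fl libraries, with no overlap. Of 20 library measures and marker sums compared by exact permutation tests, 0 passed after Benjamini-Hochberg adjustment, and 2 had an unadjusted p below 0.05, this share and that of the 10 most abundant genes. These 2 can hold the same reads, since Yam1 reached 40746 CPM in fl/fl replicate 2. With 4 against 4 libraries the smallest p of this permutation test is 0.0286, and a few measures at that value cannot pass the adjustment over 20. That 0 passed therefore does not show that the libraries were alike. The part of the library measures in the results below was not tested.

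After TGF-β1, 6 genes differed between KO and fl/fl macrophages at an edgeR adjusted p below 0.05, which is 0.0482% of the genes tested. Smad7 itself, the metalloproteinase gene Adam19 and the pseudogenes Gm3608, Gm11868 and Rps3a2 were lower in KO (0.0402%). Olfml3, a gene of microglia and other resident macrophages, was the 1 gene that was higher (0.00803%). An unadjusted p below 0.05 was reached by 637 genes, or 5.12% of those tested. DESeq2 called 30 genes, or 0.207% of those it tested, and limma voom with library weights called 31, or 0.249%, and both lists held all 6 of edgeR's genes. The median standard error of a log2 fold change was 0.17, and for 80.8% of the genes the 95% interval excluded a change of 2-fold or more in either direction.

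**Figure D1:**
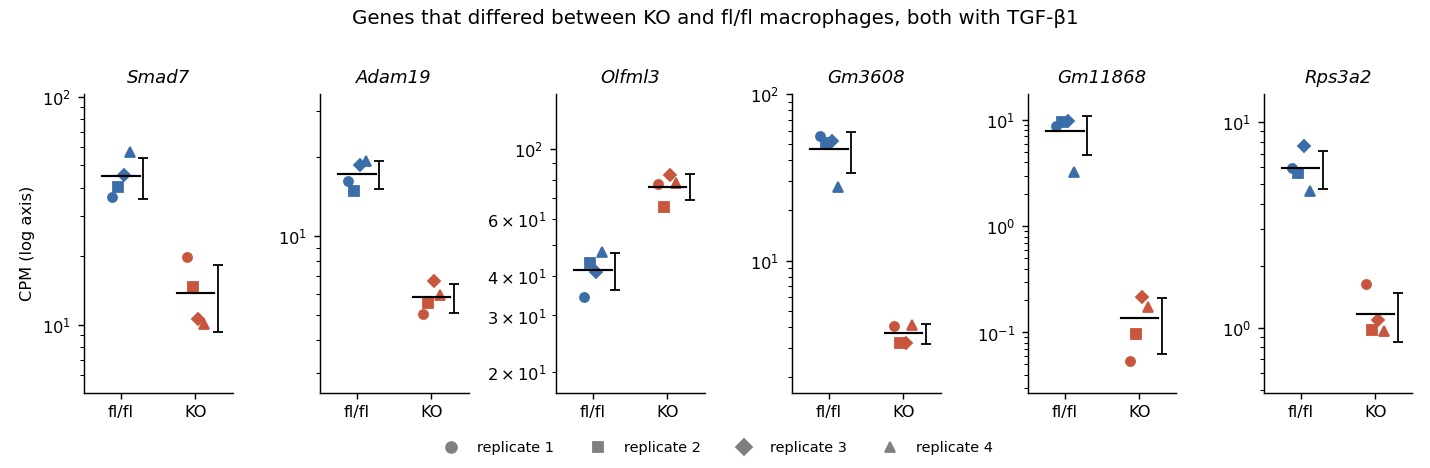
Each panel shows CPM on a log axis for 1 gene in the 4 fl/fl (blue) and 4 KO (red) libraries given TGF-β1; marker shapes stand for replicates, horizontal bars for means and brackets for 1 SD either side. The groups are apart for all 6 genes, and fl/fl replicate 4 is the lowest fl/fl library for the 3 pseudogenes, as in Gm11868 at 3.22 CPM.

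Smad7 (ENSMUSG00000025880, chr18:75367529-75395935, mm10) was counted at 19.8, 14.6, 10.6 and 10.1 CPM in KO replicates 1 to 4. In fl/fl replicates 1 to 4 it was at 36.5, 40.1, 45.3 and 57.2 CPM. Every KO library was below every fl/fl library, and the KO library nearest to the fl/fl group was replicate 1. Smad7 fell by 1.70 ± 0.22 on the log2 scale (SE, 95% interval -2.19 to -1.21, edgeR adjusted p = 0.0223), so that the KO mean of 13.8 ± 4.50 CPM was 30.8% of the fl/fl mean of 44.8 ± 9.07 CPM (SD, n = 4 each). The count covers the whole gene, and the labels do not say which exons are removed, so it does not measure how many cells had lost a working gene. In bulk RNA, fewer cells with a transcript and less of it per cell cannot be told apart.

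The direction of the Smad7 difference was the same in all 20 alternative analyses, but its adjusted p exceeded 0.05 in 11 of them, with a highest value of 0.327. With all 16 libraries of the series in the fit the adjusted p was 0.122, and with 15, leaving out the library labelled KO untreated replicate 1, it was 8.28e-04. It also exceeded 0.05 in edgeR without KO replicate 2 (0.109), 3 (0.119) or 4 (0.0836) and without fl/fl replicate 2 (0.0596) or 3 (0.120).

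Genes beside Smad7 on chromosome 18 gave no call. Of 7 tested genes within 1 Mb on either side, 0 were called by edgeR and 1 had an unadjusted p below 0.05. Smad2, the signal-carrying Smad encoded nearby, had a log2 difference of 0.04 ± 0.10. The 1 gene with a lower p was Gm20544, whose annotated end lies just before the start of Smad7. It was at 0.230 CPM in KO and 0.987 CPM in fl/fl on average (log2 difference -2.01 ± 0.72, edgeR adjusted p = 0.866), and its groups overlapped. Gm20544 was chosen after its values were seen.

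Adam19 (ENSMUSG00000011256, chr11:46055992-46147343) encodes a membrane-bound metalloproteinase that releases growth factors such as neuregulin from the cell surface. It was at 5.03, 5.55, 6.75 and 5.96 CPM in KO replicates 1 to 4 and at 16.2, 14.8, 18.6 and 19.4 CPM in fl/fl replicates 1 to 4. The highest KO value was below the lowest fl/fl value by more than the range of either group. Adam19 fell by 1.57 ± 0.15 on the log2 scale (95% interval -1.91 to -1.23, edgeR adjusted p = 0.00242), to 33.7% of the fl/fl mean. The call was lost in 1 of 20 alternatives, the edgeR fit of all 16 libraries (adjusted p = 0.0697), and held in that fit without the library labelled KO untreated replicate 1 (0.00827). On the log2(FPKM + 1) scale, which understates changes of low genes, limma gave a difference of -0.92 for Adam19 and of -2.42 for Gm11868.

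Of the 7 ADAM genes tested, Adam19 was the 1 that passed, and the median log2 difference of the 7 was -0.04, beside 0.02 over all genes tested. Adam8 and Adam15 were counted at 834 and 314 CPM in KO against 1008 and 369 CPM in fl/fl. Their log2 differences of -0.27 ± 0.10 and -0.23 ± 0.09 did not pass (edgeR adjusted p = 0.866 for each), and the groups overlapped for Adam8. Adam10 and Adam17, the main sheddases of Notch and of TNF, had log2 differences of 0.24 ± 0.16 and -0.01 ± 0.17.

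Olfml3 (ENSMUSG00000027848, chr3:103733700-103738001) encodes a secreted olfactomedin-domain glycoprotein and is used as a marker of microglia. It was at 77.5, 65.8, 82.6 and 78.0 CPM in KO replicates 1 to 4. In fl/fl replicates 1 to 4 it was at 34.3, 43.7, 41.0 and 47.4 CPM. All 4 KO libraries were above all 4 fl/fl libraries, with a gap wider than the range of either group. Olfml3 rose by 0.87 ± 0.12 on the log2 scale (95% interval 0.60 to 1.13, edgeR adjusted p = 0.0326), to 183% of the fl/fl mean. The call is the weakest of the 6 under other settings. It was lost in 13 of 20 alternatives, with adjusted p up to 0.884 in the fit of all 16 libraries and 0.0618 in that fit without the library labelled KO untreated replicate 1, and among the 13 was the removal of any single library except fl/fl replicate 4, while the log2 difference stayed between 0.78 and 0.96.

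Other genes of the microglial set did not pass the test. Of 16 tested members of that list, 1 was higher and 0 were lower by edgeR, and the list median was -0.01. The fractalkine receptor gene Cx3cr1 was at 514 CPM in KO and 603 CPM in fl/fl (log2 difference -0.23 ± 0.14), and the purinergic receptor gene P2ry12 was at 11.3 and 9.07 CPM (0.31 ± 0.20). Trem2, a lipid-sensing receptor gene, differed by 0.11 ± 0.19. The groups overlapped for all 3 of these genes. Slc2a5, a further member, had all 4 KO libraries below all 4 fl/fl libraries, beside 2.63% of all genes. It was not called by edgeR, and its direction was opposite to that of Olfml3.

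The remaining 3 called genes are pseudogene copies of other genes. A transcript aligned to another over at least 80% of its length at 95% identity or more was taken as a near-identical copy, in GENCODE M21 on GRCm38, the same assembly as mm10. Gm3608 (chr1:105455971-105458829) matched Capza1, which encodes a subunit of the protein that caps actin filaments, at 99.5% over 2859 bases. Gm11868 (chr4:18844202-18845679) matched Cyb5r4, a cytochrome b5 reductase gene, at 98.0% over 1485 bases, and Rps3a2 (chr14:88123017-88123808) matched Rps3a1, a ribosomal protein gene, at 99.5% over 792 bases. Adam19, Smad7 and Olfml3 had no such copy. How the authors' counting treated reads that fit a gene and its copy equally well is not given in the sources used here, so the split of counts within each pair is uncertain.

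The following 80-base stretches of coding sequence are shown because they set out how few positions separate each copy from its parent. They are transcript sequences from GENCODE M21, 5′ to 3′, and capitals mark the positions at which the copy and the parent differ. The stretch from Gm11868 lies over bases 177 to 256 of the Cyb5r4 coding sequence, that from Rps3a2 over bases 616 to 695 of Rps3a1, and that from Gm3608 over bases 503 to 582 of Capza1. Each stretch was picked as an ungapped one with the most differences. Over all aligned coding sequence, 23, 4 and 3 bases are substituted, with gaps not counted.
Gm11868: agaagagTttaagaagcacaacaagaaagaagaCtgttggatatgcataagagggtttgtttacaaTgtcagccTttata
Cyb5r4: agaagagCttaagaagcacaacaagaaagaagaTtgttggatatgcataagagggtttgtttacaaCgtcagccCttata
Rps3a2: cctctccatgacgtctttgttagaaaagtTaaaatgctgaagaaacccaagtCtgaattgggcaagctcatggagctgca
Rps3a1: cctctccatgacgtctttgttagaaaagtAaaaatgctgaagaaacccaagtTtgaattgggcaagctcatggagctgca
Gm3608: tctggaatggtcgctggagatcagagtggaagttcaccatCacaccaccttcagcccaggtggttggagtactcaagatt
Capza1: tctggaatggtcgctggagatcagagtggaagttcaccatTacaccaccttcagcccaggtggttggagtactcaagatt

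Gm3608 was at 4.06, 3.21, 3.21 and 4.12 CPM in KO replicates 1 to 4 and at 55.7, 50.6, 52.4 and 27.5 CPM in fl/fl replicates 1 to 4. It fell by 3.67 ± 0.23 on the log2 scale (edgeR adjusted p = 6.8e-05), and its lowest fl/fl value, in replicate 4, was still several times the highest KO value. The parent Capza1 was at 242 ± 21.1 CPM in KO and 164 ± 36.9 CPM in fl/fl (SD, n = 4 each), a log2 difference of 0.57 ± 0.16 that did not pass (edgeR adjusted p = 0.866). Every KO library was above every fl/fl library for Capza1, the reverse of its copy.

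Gm11868 was at 0.0541, 0.0973, 0.218 and 0.175 CPM in KO replicates 1 to 4 and at 8.79, 9.52, 9.80 and 3.22 CPM in fl/fl replicates 1 to 4. It fell by 5.77 ± 0.49 on the log2 scale (edgeR adjusted p = 7.78e-04), to 1.74% of the fl/fl mean. Its parent Cyb5r4 was at 125 ± 11.9 CPM in KO and 101 ± 13.1 CPM in fl/fl (SD, n = 4 each), with groups that overlapped and a log2 difference of 0.31 ± 0.12 (adjusted p = 0.866). As for Gm3608, replicate 4 was the lowest of the fl/fl libraries for the copy and also for the parent.

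Rps3a2 was at 1.62, 0.973, 1.09 and 0.963 CPM in KO replicates 1 to 4 and at 5.94, 5.63, 7.60 and 4.60 CPM in fl/fl replicates 1 to 4. It fell by 2.35 ± 0.27 on the log2 scale (edgeR adjusted p = 0.00796). Rps3a1 was at 457 ± 63.9 CPM in KO and 326 ± 28.6 CPM in fl/fl (SD, n = 4 each), with no overlap and a log2 difference of 0.49 ± 0.11 (adjusted p = 0.587). The Rps3a2 call was lost in edgeR without KO replicate 2 (0.0594), 3 (0.0582) or 4 (0.0525) or fl/fl replicate 3 (0.0546), and with replicate number as a block (0.0975).

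As a share of the counts of copy and parent together, Gm3608 held 1.26% to 1.87% in KO and 20.0% to 22.9% in fl/fl libraries. Gm11868 held 0.0495% to 0.167% in KO and 3.76% to 8.76% in fl/fl, and Rps3a2 held 0.223% to 0.294% and 1.42% to 2.04%. None of the 3 shares overlapped between the groups, but the copies were chosen for a difference between these same libraries, so this is no further evidence. With the counts of each copy added to those of its near-identical relatives in the table, the log2 differences became 0.23 ± 0.16 for Gm3608 with Capza1, 0.21 ± 0.12 for Gm11868 with Cyb5r4 and 0.46 ± 0.12 for Rps3a2 with Rps3a1 and 2 further copies. No sum passed (edgeR adjusted p = 0.869, 0.867 and 0.747). The parents held most of the counts of each pair, so the sums mainly follow the parents and cannot show whether a copy differed. In the fit of summed counts, chosen after the data were seen, Adam19 was the 1 gene called. Smad7 and Olfml3, which had no copy, kept log2 differences of -1.70 and 0.87 there (edgeR adjusted p = 0.0557 and 0.0653). Their own counts were not changed, but an adjusted p also depends on the other genes tested.

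**Figure D2:**
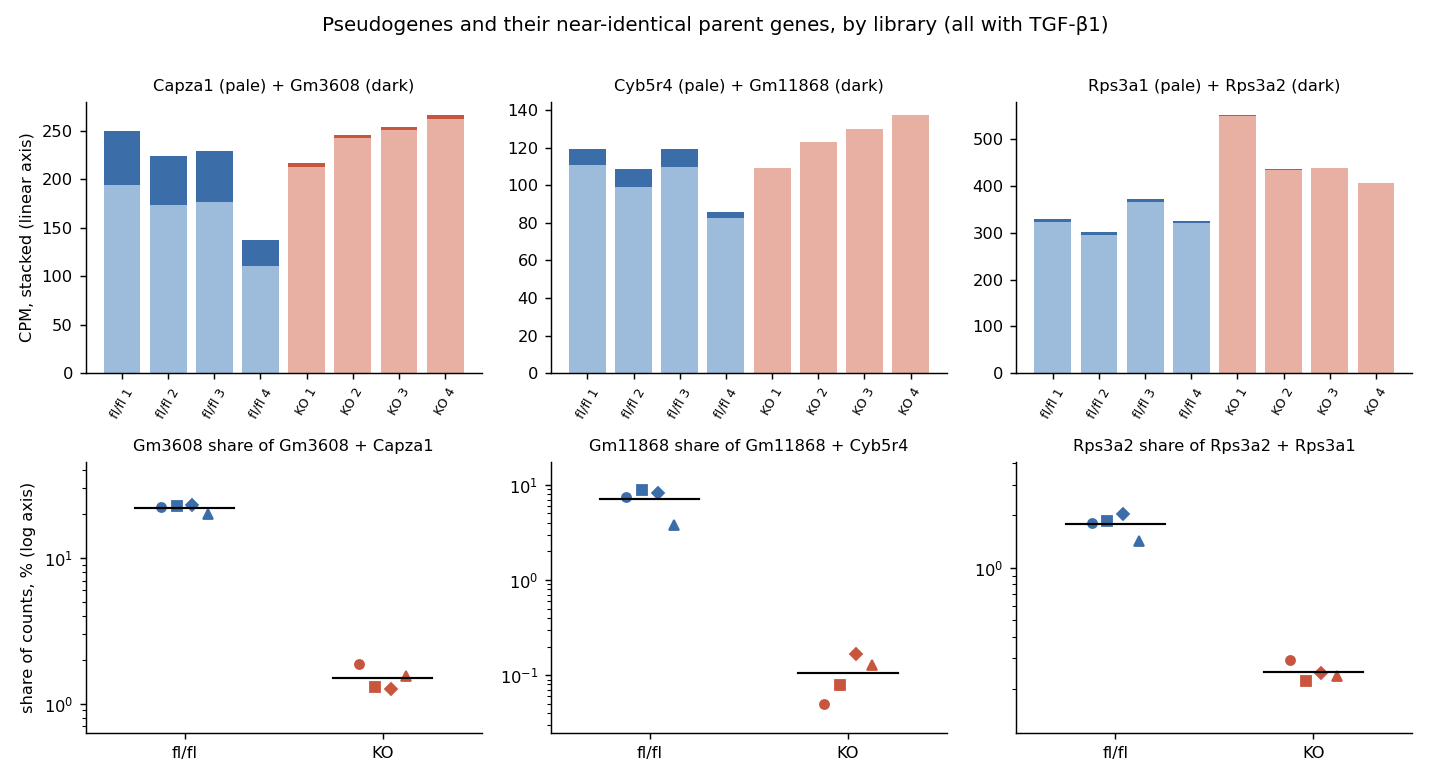
The upper panels stack the CPM of each parent gene (pale) and its copy (dark) for every library on a linear axis; the lower panels give the copy's share of their joint counts in percent on a log axis, with bars at the means. Copy shares are 1.87% or less in all KO libraries and are higher in every fl/fl library of the same pair, while the sums overlap between groups for the pairs of Gm3608 and Gm11868.

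A further gene of this kind, Hist1h2al, chosen after its values were seen, had no count in any KO library and was at 1.25, 1.33, 1.96 and 5.57 CPM in fl/fl replicates 1 to 4. Set against a floor of 3 counts over the 4 KO libraries, which covers counting error only, it was at least 67.6-fold lower in KO, and at least 40.4-fold without fl/fl replicate 4, its highest library. Its edgeR adjusted p was 0.107. The gene encodes a histone H2A in the deposited annotation and matched Hist2h2aa1 at 99.4% over 339 bases, but Hist2h2aa1 had no count in these libraries. Summed with its near-identical relatives, it had a log2 difference of -4.45 ± 0.68 (edgeR adjusted p = 0.124). Of these relatives only Hist2h2ac was counted, at 0.118 CPM in KO and 0.0850 CPM in fl/fl on average, so the sum was almost Hist1h2al alone. The sums of the 3 pairs above, which mainly follow their parents, lay between 0.21 and 0.46 and are not comparable with it.

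DESeq2 and voom with library weights shared 23 calls, 76.7% of the DESeq2 list and 74.2% of the voom list. Of these, 17 were not called by edgeR, where their adjusted p lay between 0.107 and 0.596. They were 5 higher and 12 lower genes, Hist1h2al among the lower ones, and are named here after their values were seen. These genes were selected for a difference between these libraries, so that their groups are apart is no further evidence.

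Among the higher ones was Esr1, which encodes the oestrogen receptor α. It was at 9.20, 13.96, 9.53 and 10.1 CPM in KO replicates 1 to 4 and at 4.51, 4.14, 5.93 and 3.73 CPM in fl/fl replicates 1 to 4 (log2 difference 1.22 ± 0.21, edgeR adjusted p = 0.128, DESeq2 8.07e-05). Every KO library was above every fl/fl library. Cre-ER is a fusion of Cre with the hormone-binding part of a mouse oestrogen receptor, and counts per gene cannot separate reads of such a fusion from reads of Esr1. The others were the ribosomal gene Rps3a1, Cdk5rap1 (a mitochondrial tRNA-modifying enzyme, 13.8 CPM in KO and 7.01 in fl/fl), Fabp7 (a fatty acid-binding protein, 1.54 and 0.412 CPM) and Ly6e (an interferon-inducible surface protein, 450.3 and 337 CPM).

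Among the lower ones, Tecpr1, which acts in the fusion of autophagosomes with lysosomes, was between 106 and 112 CPM in KO and between 144 and 172 CPM in fl/fl libraries (log2 difference -0.54 ± 0.09, edgeR adjusted p = 0.107). Tbc1d2, a Rab GTPase-activating protein gene, was at 23.3 CPM in KO and 35.8 CPM in fl/fl, and Nav2, a cytoskeletal regulator, at 183 and 259.8 CPM. Fn1, which encodes the matrix protein fibronectin, was at 1.57, 3.26, 3.10 and 4.07 CPM in KO replicates 1 to 4 and at 6.59, 7.62, 6.12 and 8.13 CPM in fl/fl replicates 1 to 4 (log2 difference -1.24 ± 0.27, edgeR adjusted p = 0.411, DESeq2 0.00765). Colec12, a scavenger receptor gene, was at 96.3 CPM in KO and 146 CPM in fl/fl (log2 difference -0.60 ± 0.13, edgeR adjusted p = 0.438). Bsn, Fkbp9, Ccdc107, Large, C77080 and Gm4349 made up the rest of the lower genes.

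Direct targets of TGF-β signalling came next, since Smad7 is an inhibitor of that pathway. Of 22 genes listed as Smad2/3 targets 18 were tested, and by edgeR 0 were higher and 1, Smad7 itself, was lower. The median log2 difference of the list, Smad7 included, was 0.02, the same as over all genes. Without fl/fl replicate 4 it was 0.068, beside 0.006 over all genes. The other 17 members had log2 differences between -0.42 and 0.59 and edgeR adjusted p of 0.866 or more. For 17 of the 18 genes, the deleted Smad7 among them, the upper end of the 95% interval lay under a 2-fold rise. Hes1, with an upper end of 1.18, was the exception.

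Individual targets showed how close the groups were. Skil, which encodes a Smad co-repressor, was at 549, 677, 668 and 726 CPM in KO replicates 1 to 4 and at 714, 705, 638 and 482 CPM in fl/fl replicates 1 to 4. The groups overlapped, with a log2 difference of 0.05 ± 0.14. Pmepa1, which encodes a membrane protein that sequesters Smad2 and Smad3, differed by -0.21 ± 0.10, and Ski, a second co-repressor gene, by -0.21 ± 0.12. Ldlrad4 and Junb differed by 0.00 ± 0.09 and 0.04 ± 0.14.

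Klf10, a TGF-β-inducible transcription factor gene, was the 1 other member with groups that did not overlap. It was at 51.5, 49.5, 57.9 and 52.95 CPM in KO replicates 1 to 4 and at 41.7, 46.5, 46.2 and 37.7 CPM in fl/fl replicates 1 to 4 (log2 difference 0.30 ± 0.10, edgeR adjusted p = 0.866). Over all genes tested, 593 had groups that did not overlap, or 4.76%, with 265 higher (2.13%) and 328 lower (2.63%) in KO. Without fl/fl replicate 4 the number was 1062, or 8.53%. Klf10 and Smad7 were 2 such genes among the 18 tested targets.

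**Figure D3:**
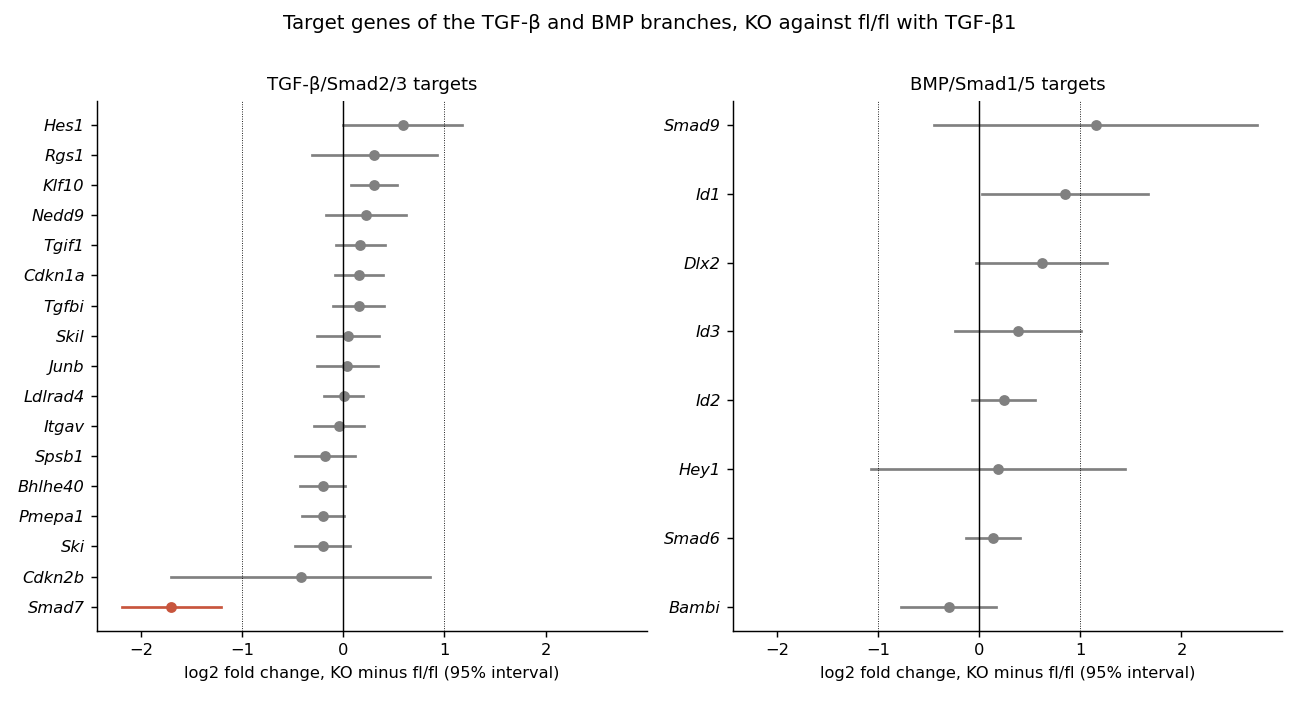
Points give the edgeR log2 fold change of KO over fl/fl, both with TGF-β1, and lines the 95% interval, for 17 of the 18 tested targets of Smad2/3 (left) and all 8 of Smad1/5 (right); dotted lines mark a 2-fold change. Smad7 (red, -1.70) is the 1 gene past the threshold, and the intervals of Smad9, Id1, Hey1 and Cdkn2b are wide, with Smad9 at a level of 1.09 CPM in KO.

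Targets of the BMP branch, which acts through Smad1 and Smad5 and is also restrained by Smad7, had a list median of 0.31, or 0.43 without fl/fl replicate 4. Of 8 tested members 7 were above 0, beside 54.3% of all genes. For 3 of the 8 the 95% interval lay under a 2-fold rise. Of the 8 tested, 0 were called by edgeR, DESeq2 or voom, and 1, Id1, had an unadjusted p below 0.05. Id1 was at 4.71, 3.11, 1.96 and 1.45 CPM in KO replicates 1 to 4 and at 1.72, 1.64, 1.43 and 1.43 CPM in fl/fl replicates 1 to 4 (log2 difference 0.85 ± 0.37, edgeR adjusted p = 0.866). The 2 groups overlapped, with KO replicates 1 and 2 well above the rest. Id3 was highest in KO replicate 1 at 185 CPM and lowest in fl/fl replicate 1 at 64.5 CPM, while fl/fl replicate 4, at 133 CPM, exceeded the other 3 KO libraries (0.38 ± 0.28). Smad6, the inhibitory Smad of the BMP branch, was at 69.6 CPM in KO and 63.4 CPM in fl/fl (0.13 ± 0.12).

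Ligands, receptors and signal-carrying Smads were likewise without a call by edgeR, DESeq2 or voom among 23 tested, and the list median was -0.11. At an unadjusted p below 0.05, 2 of them were lower, beside 2.92% of all genes. The receptor genes Tgfbr1 and Tgfbr2 were at 835 and 167 CPM in KO and at 826 and 187 CPM in fl/fl (log2 differences 0.02 ± 0.21 and -0.16 ± 0.10). The ligand gene Tgfb1 was at 389 CPM in KO and 439.6 CPM in fl/fl (-0.17 ± 0.11). Smad2, Smad3 and Smad4 differed by 0.04 ± 0.10, -0.07 ± 0.15 and -0.11 ± 0.12. The groups of 3 of the 23 members did not overlap, all lower in KO, beside 2.63% of all genes, and 1 of these was Tgfbr2.

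Eng, which encodes the co-receptor endoglin, was at 57.5, 75.6, 74.5 and 87.3 CPM in KO replicates 1 to 4 and at 92.8, 99.7, 90.4 and 96.5 CPM in fl/fl replicates 1 to 4. Its log2 difference was -0.36 ± 0.12 (edgeR adjusted p = 0.866). Nrros, which encodes the protein that anchors latent TGF-β1 on macrophages and microglia, was at 78.0, 78.3, 77.0 and 78.7 CPM in KO replicates 1 to 4 and at 91.0, 91.7, 83.0 and 95.5 CPM in fl/fl replicates 1 to 4. The KO libraries were close to each other and below all of fl/fl (log2 difference -0.21 ± 0.08, edgeR adjusted p = 0.866). Neither gene passed.

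The genes of proteins that act with Smad7 had 20 tested members, with 0 calls by edgeR, DESeq2 or voom, 0 at an unadjusted p below 0.05 and a median log2 difference of -0.04. The ubiquitin ligase genes Smurf1 and Smurf2 differed by -0.16 ± 0.10 and 0.05 ± 0.11. Rnf111, whose product degrades Smad7 protein, differed by -0.04 ± 0.12. The deubiquitinase gene Usp15 differed by 0.11 ± 0.20. The lowest p was that of Wwp2, a further ligase gene, at 161 CPM in KO and 189 CPM in fl/fl (-0.23 ± 0.12, edgeR adjusted p = 0.866).

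The 35 gene lists together held 537 tested genes, of which edgeR called 3, beside 0.0482% of all genes. These were 1 each among Smad2/3 targets, ADAM genes and microglial genes. The lists and their members were chosen with earlier results of these data known, so this number cannot be read as an enrichment. The groups did not overlap for 26 of the 537 (8 higher and 18 lower), or 4.84% beside 4.76% of all genes. In the 32 lists without a call, edgeR called 0 of 504 genes and 32 had an unadjusted p below 0.05, beside 5.12% of all genes. DESeq2 called 2 there (Fn1 and Colec12) and voom 3 (these and Plau), beside 0.207% and 0.249% of all genes each tested. The lists without a call covered inflammatory, metabolic, stress and proliferation genes, and list medians were between -0.22 and 0.31.

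**Figure D4:**
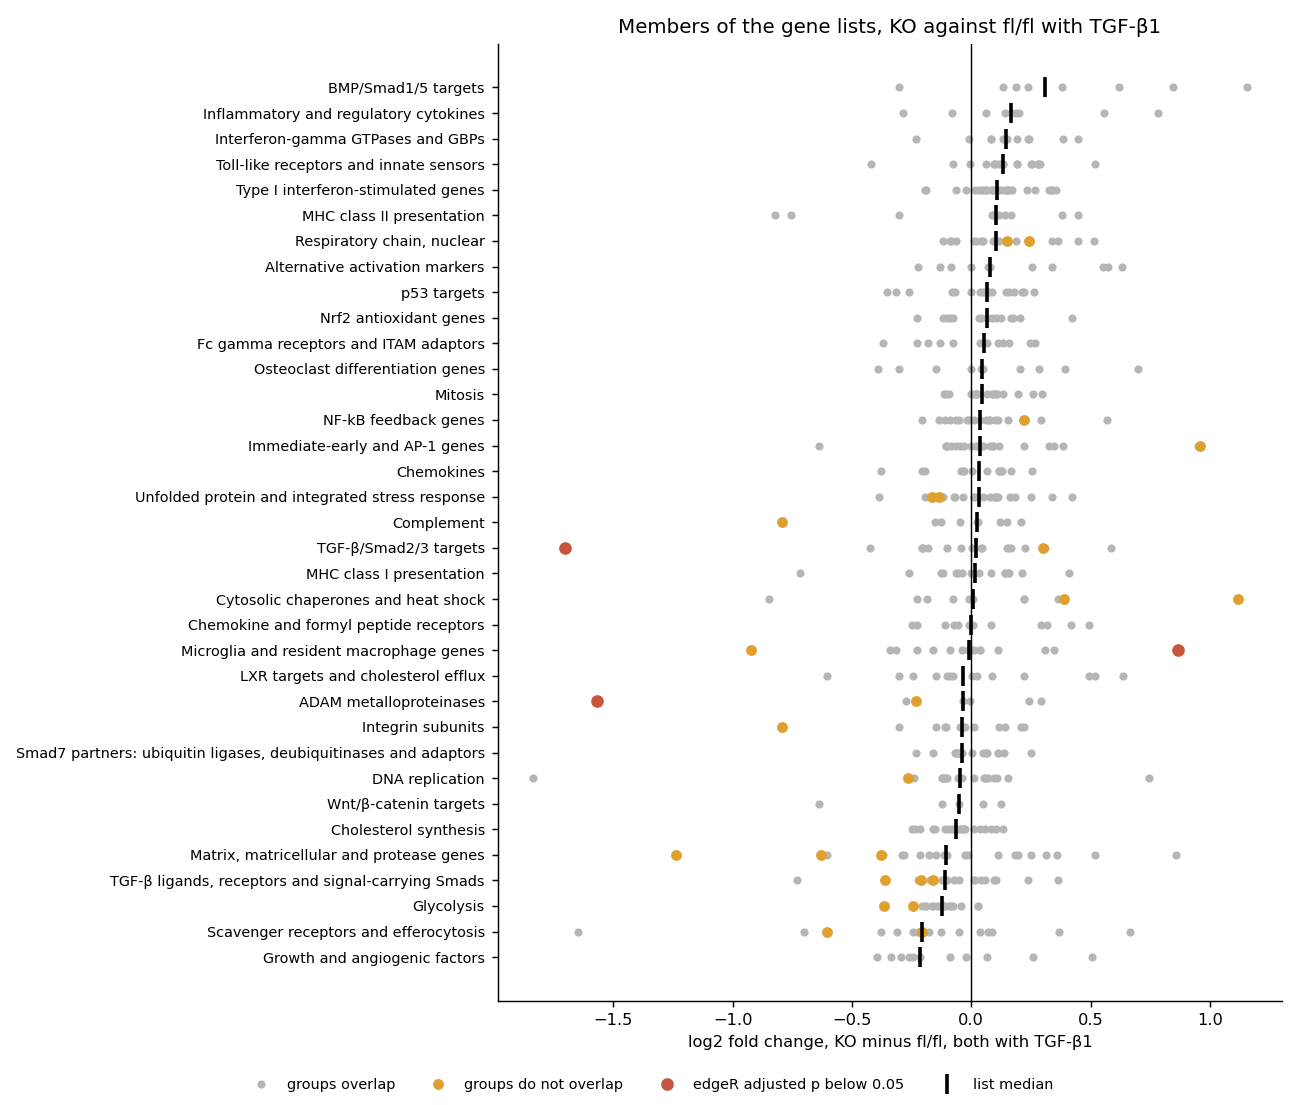
Each point is 1 tested gene, placed by its edgeR log2 fold change of KO over fl/fl with TGF-β1, in the 35 gene lists, ordered by their medians (black ticks); a gene in several lists appears in each. Red points (3 genes) passed the threshold, orange ones had groups that did not overlap, and the medians lie between -0.22 and 0.31.

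Among matrix, matricellular and protease genes, 22 were tested, 4 were lower and 0 higher at an unadjusted p below 0.05 (lower in 2.92% of all genes), and 3 had groups that did not overlap, all lower in KO (2.63% of all genes). These were Fn1, Plau and Spp1. Plau, the gene of urokinase, was at 25.8, 51.6, 41.3 and 39.5 CPM in KO replicates 1 to 4 and at 62.2, 63.6, 60.8 and 58.4 CPM in fl/fl replicates 1 to 4 (log2 difference -0.63 ± 0.17, edgeR adjusted p = 0.838). Spp1, the gene of osteopontin, ranged from 583 to 1088 CPM in KO and from 1115 to 1198 CPM in fl/fl (-0.38 ± 0.17, adjusted p = 0.866). KO replicate 1, which lay apart on the second principal component, was the lowest library for all 3 genes. Thbs1, another matricellular gene, differed by -0.03 ± 0.15, and the list median was -0.11.

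No inflammatory gene of the lists for cytokines, interferon-γ GTPases, innate sensors and NF-κB feedback was called by edgeR, DESeq2 or voom. Log2 differences were above 0 for 7 of 9 cytokine genes, 10 of 12 interferon-γ GTPase genes and 16 of 19 innate sensor genes, beside 54.3% of all genes. Their medians were 0.17, 0.15 and 0.13, and 0.27, 0.07 and 0.019 without fl/fl replicate 4. Nfkbia, the gene of an inhibitor of NF-κB, was the 1 member of 19 tested NF-κB feedback genes with an unadjusted p below 0.05. It was at 91.6, 81.3, 93.4 and 85.1 CPM in KO replicates 1 to 4 and at 68.5, 72.9, 79.2 and 80.9 CPM in fl/fl replicates 1 to 4 (log2 difference 0.22 ± 0.09, edgeR adjusted p = 0.866), with the groups just apart. The cytokine gene Il18 was at 7.54 CPM in KO and 5.11 CPM in fl/fl (0.56 ± 0.23). The chemokine gene Ccl4 was at 4.57 and 5.92 CPM, with fl/fl replicate 4 at 10.4 CPM, and its log2 difference of -0.38 ± 0.30 turned to 0.043 without that library. Of 27 interferon-stimulated genes tested, 23 had a log2 difference above 0 and 2 an unadjusted p below 0.05, beside 54.3% and 5.12% of all genes. The list median was 0.11, or 0.03 without fl/fl replicate 4. Oas2, an antiviral sensor gene, was at 99.0 CPM in KO and 78.6 CPM in fl/fl (0.33 ± 0.12).

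Antigen presentation, phagocytosis and surface receptor lists had 0 edgeR calls. Of 18 scavenger receptor and efferocytosis genes tested, DESeq2 and voom each called 1, Colec12, beside 0.207% and 0.249% of all genes each tested. The list median was -0.20, and 5 of the 18 were above 0, beside 54.3% of all genes. Colec12 and Stab1 had groups that did not overlap, both lower in KO (2.63% of all genes). B2m, the light chain gene of MHC class I, was at 981 CPM in KO and 738 CPM in fl/fl (log2 difference 0.41 ± 0.14), and Ctss, a protease gene that processes the class II invariant chain, was at 1504 and 1103 CPM (0.45 ± 0.14). Their groups overlapped. Itgax, the gene of the integrin CD11c, was at 0.866, 1.99, 1.85 and 1.93 CPM in KO replicates 1 to 4 and between 2.29 and 3.22 CPM in fl/fl (-0.79 ± 0.31). Mrc1, the mannose receptor gene, was at 373 CPM in KO and 435 CPM in fl/fl (-0.22 ± 0.12). B2m, Ctss, Itgax and Mrc1 did not pass (edgeR adjusted p = 0.866 for each).

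In the metabolic lists, glycolysis had 19 tested genes with a median of -0.12, of which 2 had a log2 difference above 0 (54.3% of all genes). The 2 that were lower at an unadjusted p below 0.05 (2.92% of all genes) were Hk2 and Hk3. Hk3, a hexokinase gene of myeloid cells, was at 194, 211, 229 and 212 CPM in KO replicates 1 to 4 and at 274, 261, 243 and 314 CPM in fl/fl replicates 1 to 4 (-0.37 ± 0.10, edgeR adjusted p = 0.866). The groups were apart. For all 19 glycolytic genes the 95% interval excluded a 2-fold change. Nuclear genes of the respiratory chain had a median of 0.10, with 2 of 20 higher at an unadjusted p below 0.05, beside 273 of all 12449 genes. Of the 2, Uqcrfs1, a subunit of complex III, was at 74.1 CPM in KO and 62.7 CPM in fl/fl (0.24 ± 0.09). Lpl, the lipoprotein lipase gene, was at 1056 and 1605 CPM (-0.60 ± 0.21) with groups that overlapped.

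Stress and cell cycle genes completed the lists. Hspa1b, a heat-shock protein 70 gene with a near-identical neighbour in the genome, was between 1.95 and 2.19 CPM in KO and between 0.526 and 1.48 CPM in fl/fl (log2 difference 1.12 ± 0.37, edgeR adjusted p = 0.866). Fosb, an AP-1 subunit gene, was between 1.03 and 1.73 CPM in KO and between 0.307 and 1.01 CPM in fl/fl (0.96 ± 0.42). Cdt1, which licenses replication origins, was at 69.9 CPM in KO and 84.0 CPM in fl/fl (-0.27 ± 0.09), with groups that were apart. Cdkn1a, the gene of the p21 cell cycle inhibitor, was at 214 and 192 CPM (0.16 ± 0.11). None of the 4 passed.

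The same genotype comparison in libraries labelled as without TGF-β1 used none of the libraries above. The labels do not say whether treated and untreated cultures came from the same mice, so this comparison need not be independent of the one above. It gave 4 calls (0.0321% of the genes tested) with all 8 untreated libraries and 7 (0.0556%) without the library labelled KO untreated replicate 1. All 6 called genes had the same sign there, both with all 8 untreated libraries and without the library labelled KO untreated replicate 1. Without that library, Smad7 was between 1.31 and 2.02 CPM in KO and between 3.94 and 6.12 CPM in fl/fl, a log2 difference of -1.61 ± 0.26 (edgeR adjusted p = 0.0709). With it, at 5.96 CPM, the log2 difference was -0.89 and the groups overlapped (adjusted p = 0.466).

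Adam19 was between 3.92 and 10.8 CPM in untreated KO replicates 2 to 4 and between 27.0 and 38.9 CPM in untreated fl/fl libraries, a log2 difference of -1.90 ± 0.31 (edgeR adjusted p = 0.103). Olfml3 was between 3.13 and 6.00 CPM in untreated KO replicates 2 to 4 and between 2.05 and 3.44 CPM in untreated fl/fl libraries, beside 60.6 CPM in the library labelled KO untreated replicate 1. Without that library its log2 difference was 0.77 ± 0.28 (adjusted p = 0.292). Gm3608 and Gm11868 passed the threshold in untreated cells as well, with log2 differences of -3.92 ± 0.13 and -6.37 ± 0.30 (adjusted p = 1.74e-07 and 3.24e-06), and Rps3a2, at -2.16 ± 0.34, did not (0.0709). Whether the genotype difference itself differed between the treatments was put to edgeR's interaction test. It called 0 of 13080 genes with all 16 libraries and 0 of 13335 without the library labelled KO untreated replicate 1, and 275 and 267 had an unadjusted p below 0.05. Without that library the interaction's SE was 0.36 for Smad7 and 0.34 for Adam19, beside 0.22 and 0.15 in the comparison after TGF-β1. The absence of calls thus does not show that the differences were equal.

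Of the 593 genes with groups that did not overlap after TGF-β1, 586 were also tested in untreated cells without the library labelled KO untreated replicate 1, and 503 of these, or 85.8%, had the same sign. Over all genes the figure was 63.2%. With all 8 untreated libraries the shares were 82.9% and 61.8%. Genes are not independent of each other, so no p is attached to these shares.

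**Figure D5:**
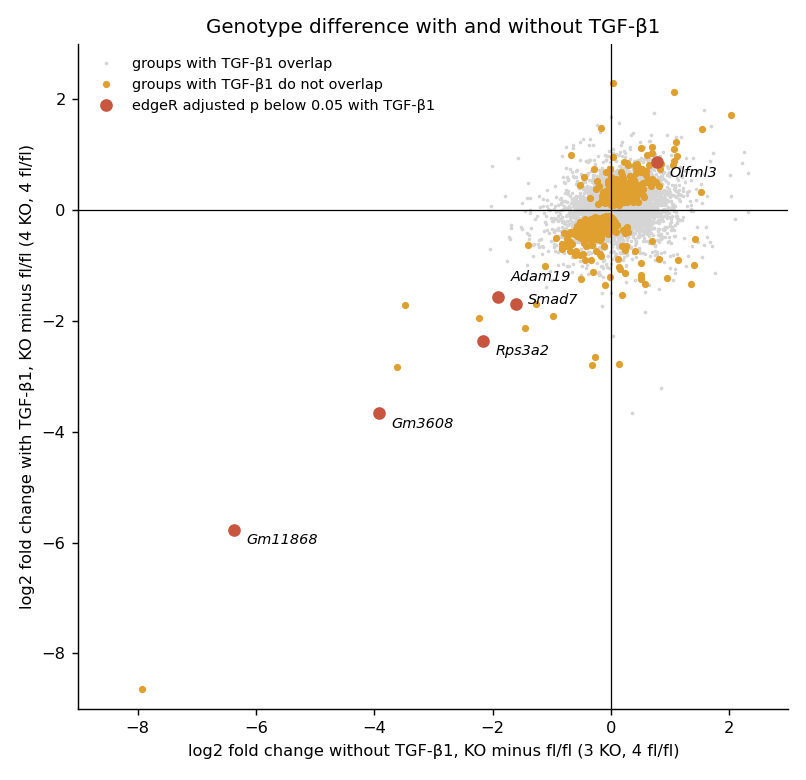
Each point is a gene, with its edgeR log2 fold change of KO over fl/fl without TGF-β1 (3 KO and 4 fl/fl libraries) on the horizontal and with TGF-β1 (4 and 4 libraries) on the vertical axis. The 6 called genes (red) have the same sign on both axes, and the lowest orange point is Hist1h2al, whose fitted value is no estimate of size because it had 0 counts in KO.

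Yam1 and Lars2, chosen after their values were seen, are given beside these because their shares differed between the groups. Yam1 was at 374, 3435, 6519 and 3776 CPM in KO replicates 1 to 4 and at 22048, 40746, 26289 and 8806 CPM in fl/fl replicates 1 to 4 after TGF-β1 (log2 difference -2.80 ± 0.68, edgeR adjusted p = 0.649). In untreated cells, without the library labelled KO untreated replicate 1, its log2 difference was -0.31 ± 0.31, and the difference between the treatments did not pass (edgeR adjusted p = 0.981). Lars2, a mitochondrial leucyl-tRNA synthetase gene, differed by -2.66 ± 0.67 after TGF-β1 and by -0.26 ± 0.20 without it. Neither gene passed. In untreated libraries Yam1 was between 3286 and 8538 CPM in fl/fl and between 4284 and 5866 CPM in KO replicates 2 to 4. The library labelled KO untreated replicate 1 was at 9948 CPM. After TGF-β1, fl/fl replicates 1 to 3 were above all of these, while fl/fl replicate 4, at 8806 CPM, was close to the highest untreated fl/fl level.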

How the data were processed

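Polyadenylated RNA of 16 libraries was sequenced as 150 bp pairs, per the labels, and the 8 libraries given TGF-β1 were compared. The authors deposited raw read counts per Ensembl gene for 35275 genes, and FPKM, which equalled count over gene length and library total within 0.1%. The submitters' processing notes name HTSeq 0.6.1, Cufflinks 2.1.1 and TopHat2 2.0.9, without their roles, and the builds GRCm38.p6 and mm10. Strand and multi-mapping options are not given in the sources used here. The labels give 16 libraries, but the extraction text speaks of 8.

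Counts were fitted with edgeR 4.0.16 (R 4.3.3): filterByExpr, TMM, robust quasi-likelihood F-test, Benjamini-Hochberg over the genes tested, threshold 0.05. Adjusted p-values come from edgeR except where the sentence names another tool. Intervals are 95%. Exact permutation tests were two-sided. The script was tested on simulated data. Alternatives used DESeq2 1.42.0 and limma 3.58.1, on log2(FPKM + 0.1) and log2(FPKM + 1) or with voom weights. Copies were found with BLAST 2.17.0. Floors cover counting error only. Of the 35275 identifiers, 34490 were in GENCODE M21, whose transcripts gave the printed sequences.

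Named genes were Smad7, up to 12 characterised called genes per direction with an average log2 CPM of 1 or more and no overlap of the groups, and, per list, up to 2 called members per direction or the member of lowest p. The members and lists were chosen with earlier results of these data known. List members are also given by role. Some members of the lists are counted but not reported here by name.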

Additional observations from a re-analysis of the deposited data

Results flagged for a closer look

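In 9 of 130 groups of 4 libraries, 1 library lay far from the other 3 by Dixon's 95% criterion, which chance exceeds in about 1 in 20 groups. Of the 9, 5 were in fl/fl replicate 4 and 1 in KO replicate 1, all with TGF-β1. In fl/fl replicate 4, Gm11868 was at 3.22 CPM (others 8.79 to 9.80), Hist1h2al at 5.57 CPM (others 1.25 to 1.96), Ccnd1, a cyclin gene, at 29.0 CPM (others 20.4 to 21.5) and Ccl4 at 10.4 CPM (others 3.84 to 4.73). The same library had 14915 genes with a count, against 16688 to 17017 in the other fl/fl libraries.

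In fl/fl replicate 3, Mrc1 was at 520.5 CPM (others 395 to 416), and the summed endothelial markers were at 106 CPM (others 143 to 147). In KO replicate 1, Itgax was at 0.866 CPM (others 1.85 to 1.99). In KO replicate 2, Hspa1b was at 2.19 CPM, while the other 3 KO libraries were at 1.95 to 1.97 CPM, a spread so narrow that a small distance stood out.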

How the results depend on the processing

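edgeR called 6 genes in the 8 libraries and between 3 and 8 when 1 library was left out, with 3 each without KO replicate 2, 3 or 4 or fl/fl replicate 3. DESeq2 called 30. Alternatives chosen after seeing the data gave 13 (14 libraries, without KO untreated replicate 1 and fl/fl replicate 4), 31 (voom with library weights) and 1 (copies summed). The replicate block gave 3 calls. Same-numbered samples correlated between -0.158 and -0.0268 in their deviations, no KO library correlated best with its own number, and the numbers were not taken to pair the samples. Smad7 kept its direction in all 20 alternatives but lost its call with 16 libraries (-1.71; it held with 15, without the library labelled KO untreated replicate 1), the replicate block (-1.73), library totals alone (-1.64), limma on log2(FPKM + 0.1) (-1.64) and log2(FPKM + 1) (-1.41), and copies summed (-1.70). Smad7 had no near-identical copy, so summing copies left its own counts as they were. Leaving out 1 library gave -1.93 to -1.57 for Smad7. Ccl4 (-0.54 to 0.043 when 1 library was left out) changed sign to 0.043 without fl/fl replicate 4, to 0.027 with 14 libraries and to 0.0073 with voom weights, without passing in any; the cause was not tested. The untreated comparison gave 4 calls with 8 libraries and 7 without KO untreated replicate 1. Scaling by library totals alone moved the median of all genes to 0.08. Members of the lists without overlap numbered 26, and 37 (6.89%, beside 8.53% of all genes) without fl/fl replicate 4. Genes near the count filter had wide intervals, and a 2-fold change could be excluded for 80.8% of genes only.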
